A study of Mus musculus with 6 samples.

Results

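The genes described here make cholesterol and fatty acids, and comprise 32 members: the enzymes of the mevalonate arm, the enzymes that turn its product into squalene and then into sterols, 5 regulators of these genes, the sterol carrier Stard4, and 8 enzymes of fatty acid synthesis. They were chosen by gene symbol, with the values of these arrays already known. A probe set was named for 31 of the 32, Acat2 being the exception, and 30 passed a filter on detection, out of 18193 genes named on the array and 12250 tested. The member that did not pass was Tm7sf2. Together the members were read by 72 of the 45101 probe sets.

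Cells build cholesterol from acetyl-CoA. The mevalonate arm makes the branched units of isoprenoids, squalene synthase commits them to sterols, and a chain of oxidations and reductions after squalene gives cholesterol, while fatty acid synthase and its partners draw on the same acetyl-CoA. When sterol in the endoplasmic reticulum is low, SCAP carries the SREBP factors (encoded by Srebf1 and Srebf2) to the Golgi, where they are cut and freed to switch on sterol, fatty acid and uptake genes. INSIG proteins hold SCAP back when sterol is high. Dividing cells need these lipids for new membrane, and the mineralising tooth holds both dividing precursors and secretory cells.

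The study compared pulp from the continuously growing incisor of control mice and of mice in which Ring1b was deleted. Ring1a and Ring1b, encoded by Ring1 and Rnf2, are the ubiquitin ligases of Polycomb repressive complex 1, which marks histone H2A. RNA was amplified, labelled with biotin and read on Affymetrix arrays, 3 for each group, each labelled a biological replicate. All 6 samples were Ring1a-/- and carried CreERT2, a Cre recombinase that tamoxifen activates. The control genotype was given as Ring1b flox/flox and the deletion genotype as Ring1b cko/cko. Mice of the deletion group were injected with 4-hydroxytamoxifen (OHT) at 40 mg/kg, mice of the control group with corn oil. Both were injected on postnatal days 9 and 13, and tissue was taken on day 17, so drug and deletion cannot be told apart. The promoter that drives CreERT2 and any pooling of animals are not stated in the labels.

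Some properties of the 6 arrays touch all values below. Per array 53.8% to 57.9% of probe sets were called Present. The replicate 1 arrays of both groups stood apart in the ratio of 3' to 5' signal of the array's Gapdh control, a sign of RNA length: it was 3.08 for control and 1.31 for deletion replicate 1, against 0.808 to 0.865 on the other 4. The odontoblast markers of the labelled tissue were Present on every array (6 of 6 tested), and so were 12 of 13 tested markers of dental epithelium, a tissue that lies next to the pulp. Signal of the targeted gene Rnf2 was 2693, 2440 and 2233 on the control arrays and 3165, 3550 and 2831 on the deletion arrays, and Ring1 was Present on none. Whether the Rnf2 probes fall inside the deleted part is not known here, so they do not check the labels.

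Sterol synthesis enzymes had lower mean signal in the deletion arrays, and so did the 8 fatty acid enzymes, by less in the median. All 16 tested enzymes of the 2 sterol arms had a lower mean in deletion, with a median log2 difference (deletion minus control) of -0.48. Over all 12250 genes that median was 0.02, the quartiles were -0.19 and 0.26, and 47.5% had a lower mean. The mevalonate arm had a median of -0.24 over 6 genes, the squalene and post-squalene arm -0.53 over 10, and the fatty acid arm -0.07 over 8. Sterol and fatty acid enzymes were each mixed. Mvk, Pmvk and Mvd differed by -0.09, -0.02 and -0.04, and Fads2, Elovl6 and Scd1 by -0.62, -0.51 and -0.32. The values of Mvd and Scd1 depended on the probe set, at -0.83 and -1.33 on their other kept ones. The 5 regulators had a median of -0.02, and the lone transport gene Stard4 stood at -0.56. These differences helped to choose the members, so they are given as a description, with no test of a member or an arm. In RNA from a whole tissue, fewer cells of a type and less RNA per cell cannot be told apart.

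**Figure D1:**
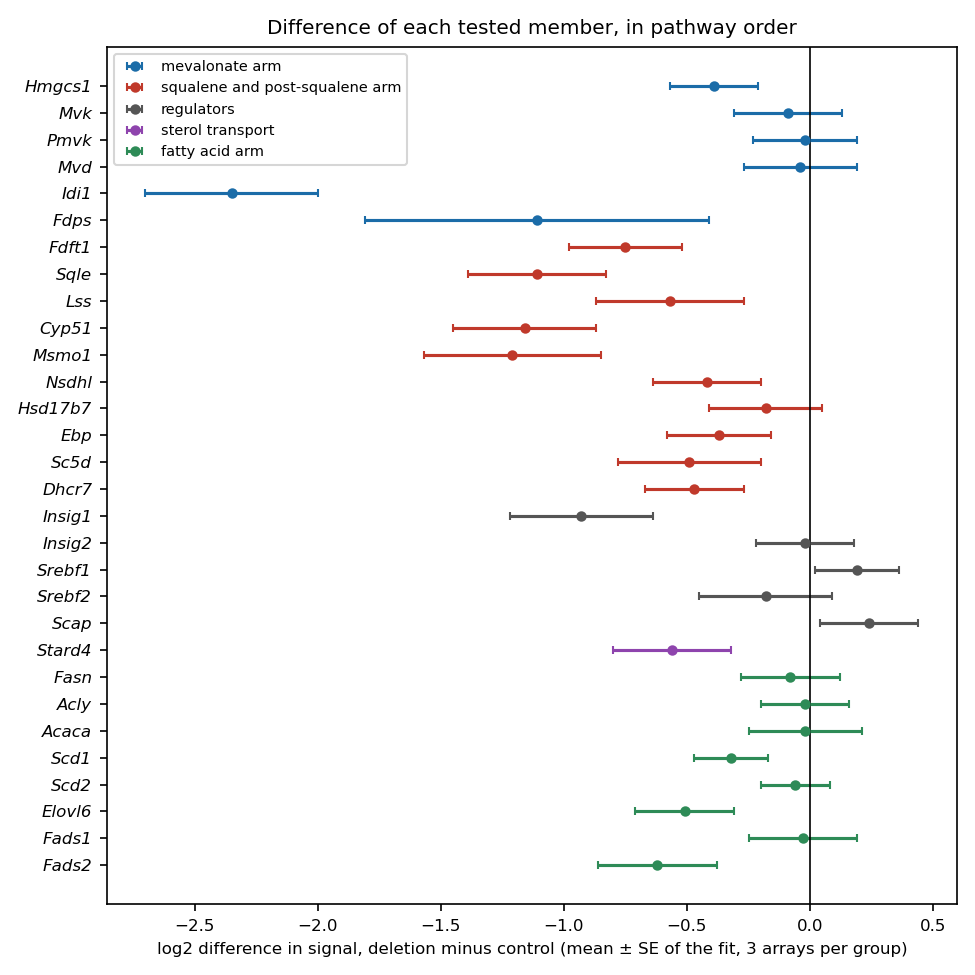
Log2 difference in signal between deletion and control (x axis) for the 30 tested members (y axis, in pathway order, coloured by arm); points are differences of means over 3 arrays per group and bars the standard error of the limma fit. Idi1 lies lowest at -2.35, all 16 sterol enzymes lie left of 0, and 5 of the 8 fatty acid enzymes (Fasn, Acly, Acaca, Scd2 and Fads1) lie at -0.08 or nearer to 0.

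Of the 30 members, 1 passed the limma threshold (adjusted p under 0.05 over all genes tested) as lower in deletion, Idi1, and none as higher. Over all genes, 0.759% were called lower and 1.89% higher, 2.65% in either direction. At an unadjusted p under 0.05 the members' counts were 10 and 0, where 5.85% of all genes were lower and 9.3% higher. With the replicate number as a block, 7 members were called lower (Idi1, Fdps, Fdft1, Sqle, Cyp51, Msmo1 and Insig1) and none higher, where 4.19% of all genes were called lower and 6.44% higher. In 11 members every deletion array lay below every control array, as did 8.64% of all genes. No member had every deletion array above every control array, as 12.2% of all genes did. Because this contrast helped to choose the members, nothing is read from these counts against their backgrounds. The single call was lost without control replicate 2, when 0 members were called, though the Idi1 difference was then -2.42 against -2.35 with all arrays. Without both replicate 1 arrays 4 were called lower, Idi1, Fdps, Cyp51 and Msmo1, where 1.36% of all genes were.

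Promoters of some members are printed as the sequence the regulators are known to act on. They are those of Idi1, Cyp51 and Msmo1, whose means differed most, of Hmgcs1, and of Fasn, which differed little. Of the 25 members with a window, Hmgcs1 was the sole one whose window held the sterol regulatory element searched. Each window runs from 250 bases before to 50 bases after a start site of RefSeq (build GRCm38.p6) and is written 5' to 3' on the strand of the gene. Capitals mark matches on either strand to TCACNCCAC (the sterol regulatory element that SREBP factors bind), to CCAAT (bound by NF-Y) and to GGGCGG (bound by Sp1), the latter pair appearing as ATTGG and CCGCCC on the other strand. The windows are chr13:8885356-8885655 (plus strand) for Idi1, chr13:119690101-119690400 (plus) for Hmgcs1, chr5:4104648-4104947 (minus) for Cyp51, chr8:64733529-64733828 (minus) for Msmo1 and chr11:120824498-120824797 (minus) for Fasn.
Idi1: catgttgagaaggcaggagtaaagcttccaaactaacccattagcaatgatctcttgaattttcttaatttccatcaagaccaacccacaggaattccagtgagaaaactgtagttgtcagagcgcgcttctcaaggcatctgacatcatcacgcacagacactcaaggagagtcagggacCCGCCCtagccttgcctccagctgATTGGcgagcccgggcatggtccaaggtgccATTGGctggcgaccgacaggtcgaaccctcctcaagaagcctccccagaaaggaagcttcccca
Hmgcs1: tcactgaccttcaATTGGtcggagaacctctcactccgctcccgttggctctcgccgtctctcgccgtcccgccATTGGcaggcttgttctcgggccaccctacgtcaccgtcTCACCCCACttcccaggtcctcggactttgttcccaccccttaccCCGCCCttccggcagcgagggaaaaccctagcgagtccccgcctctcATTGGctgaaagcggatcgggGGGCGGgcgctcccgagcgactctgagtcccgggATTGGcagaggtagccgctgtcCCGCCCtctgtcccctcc
Cyp51: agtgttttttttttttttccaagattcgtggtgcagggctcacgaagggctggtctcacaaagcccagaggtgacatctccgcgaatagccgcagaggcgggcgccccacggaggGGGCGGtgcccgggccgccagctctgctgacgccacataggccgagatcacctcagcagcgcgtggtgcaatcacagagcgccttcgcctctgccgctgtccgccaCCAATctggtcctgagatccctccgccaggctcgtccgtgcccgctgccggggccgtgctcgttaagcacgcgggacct
Msmo1: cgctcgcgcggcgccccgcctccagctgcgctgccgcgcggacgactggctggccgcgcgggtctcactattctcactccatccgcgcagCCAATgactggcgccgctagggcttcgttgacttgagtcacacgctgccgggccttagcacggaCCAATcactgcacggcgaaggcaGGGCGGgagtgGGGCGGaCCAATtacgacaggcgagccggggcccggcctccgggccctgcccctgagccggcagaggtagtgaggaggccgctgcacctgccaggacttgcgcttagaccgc
Fasn: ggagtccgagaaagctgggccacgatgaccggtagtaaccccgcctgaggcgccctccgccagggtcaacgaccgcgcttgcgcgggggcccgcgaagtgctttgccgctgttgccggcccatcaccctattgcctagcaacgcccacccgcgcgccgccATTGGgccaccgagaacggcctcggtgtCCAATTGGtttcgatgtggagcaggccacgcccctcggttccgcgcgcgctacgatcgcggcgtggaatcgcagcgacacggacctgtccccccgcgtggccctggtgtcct

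Promoter windows were found for 25 members, 33 windows in all, since some genes have several start sites. None was found for Fdps, Fdft1, Sqle, Stard4, Scd1, Scd2 and Fads1, so their promoters were not searched. The sterol regulatory element matched 1 of the 33 (3.03%), the Hmgcs1 window, at 137 bases before the start, against 1.24% of all 32851 windows and 1.15% of the windows of genes tested here. CCAAT matched 63.6% of the members' windows against 37.2% of those of tested genes. Among the 18 windows of sterol enzymes it matched 77.8%, and among the 5 of fatty acid enzymes 40% (2 windows). GGGCGG matched 75.8% of the members' windows against 61.7%, and 83.3% of the sterol windows. In the Fasn window a CCAAT and an ATTGG overlap by 2 bases. A match is a run of letters and no measured binding, and no match says only that these letters are absent from a window of 300 bases.

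In the mevalonate arm the enzymes differed widely among themselves. Idi1, the isomerase that interconverts the branched building blocks, had signals of 789, 925 and 1425 on control replicates 1 to 3 and of 117, 285 and 234 on the deletion arrays. Every deletion array lay well below every control array, with the lowest signal on deletion replicate 1. Its mean log2 signal fell from 9.98 ± 0.44 to 7.63 ± 0.68 (SD, n = 3), a difference of -2.35 ± 0.35 (SE) or 5.11-fold, the 19th lowest of all genes tested. A further Idi1 probe set read 273, 383 and 405 in control and 48.7, 161 and 75.1 in deletion, again without overlap, a difference of -2.06.

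Farnesyl diphosphate synthase, Fdps, which joins these blocks, had signals of 277, 1536 and 1565 in control and of 173, 555 and 691 in deletion. Replicate 1 was far below the others in both groups, so the groups overlapped. The difference was -1.11 ± 0.70, the widest error of any member, and it was -1.94 without control replicate 1 and -0.50 without deletion replicate 1. Within the same replicate numbers it was -0.68, -1.47 and -1.18. Hmgcs1, the synthase that opens the pathway, read 2684, 2688 and 3421 in control and 2259, 1913 and 2553 in deletion. The groups did not overlap, and the difference was small, -0.39 ± 0.18 or 1.31-fold. Its 4 further probe sets were lower as well, by -0.31 to -0.89, and 1 of them without overlap.

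The kinases and the decarboxylase between these steps differed little on the probe sets used. Mevalonate kinase, Mvk, was Present on 2 arrays of each group and differed by -0.09 ± 0.22, and phosphomevalonate kinase, Pmvk, by -0.02 ± 0.21. Mvd, the decarboxylase, read 218, 219 and 192 in control and 183, 198 and 235 in deletion, which overlapped, a difference of -0.04 ± 0.23. Its other kept probe set read 171, 215 and 240 in control and 92.7, 147 and 115 in deletion. There the deletion arrays lay below the control arrays, by -0.83, so the Mvd value depends on the probe set. With probe sets averaged per gene the median of the arm was -0.47 and not -0.24.

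After Fdps the squalene and post-squalene arm was lower in nearly every member and replicate. All 10 tested enzymes had lower means, from -0.18 to -1.21, and within replicate numbers 1, 2 and 3 the deletion array was lower for 10, 10 and 9 of them. None passed the limma threshold without the block. At an unadjusted p under 0.05, 5 were lower, where 5.85% of all genes were. With the block 4 were called lower, where 4.19% of all genes were. In 5 of the 10 every deletion array lay below every control array, as in 8.64% of all genes. This contrast helped to choose the members, so nothing is read from these counts. The oxidative steps on squalene and lanosterol held the largest differences of the arm.

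Methylsterol monooxygenase, Msmo1, which starts the removal of methyl groups from lanosterol's products, read 357, 643 and 903 in control and 178, 307 and 304 in deletion. The highest deletion signal lay below the lowest control signal, and control replicate 1 was far under the other control arrays. The difference was -1.21 ± 0.36, or 2.32-fold. Lanosterol demethylase, Cyp51, read 501, 622 and 652 in control and 167, 332 and 330 in deletion. Again no array of one group reached the other, and deletion replicate 1 was lowest. Cyp51 differed by -1.16 ± 0.29, or 2.23-fold, and by -1.13 on a further probe set, also without overlap.

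Squalene epoxidase, Sqle, the first oxygen-requiring step, read 987, 1237 and 1567 in control and 416, 558 and 828 in deletion. Within each group replicate 1 was lowest and replicate 3 highest, yet the groups did not overlap. The difference was -1.11 ± 0.28, or 2.15-fold. Squalene synthase, Fdft1, read 2403, 1460 and 2168 in control and 1440, 999.9 and 1116 in deletion, with control replicate 2 close to deletion replicate 1. It differed by -0.75 ± 0.23, or 1.68-fold, on a probe set of the type that can cross-hybridise, and by -0.65 on its other kept probe set, where the groups did not overlap either.

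**Figure D2:**
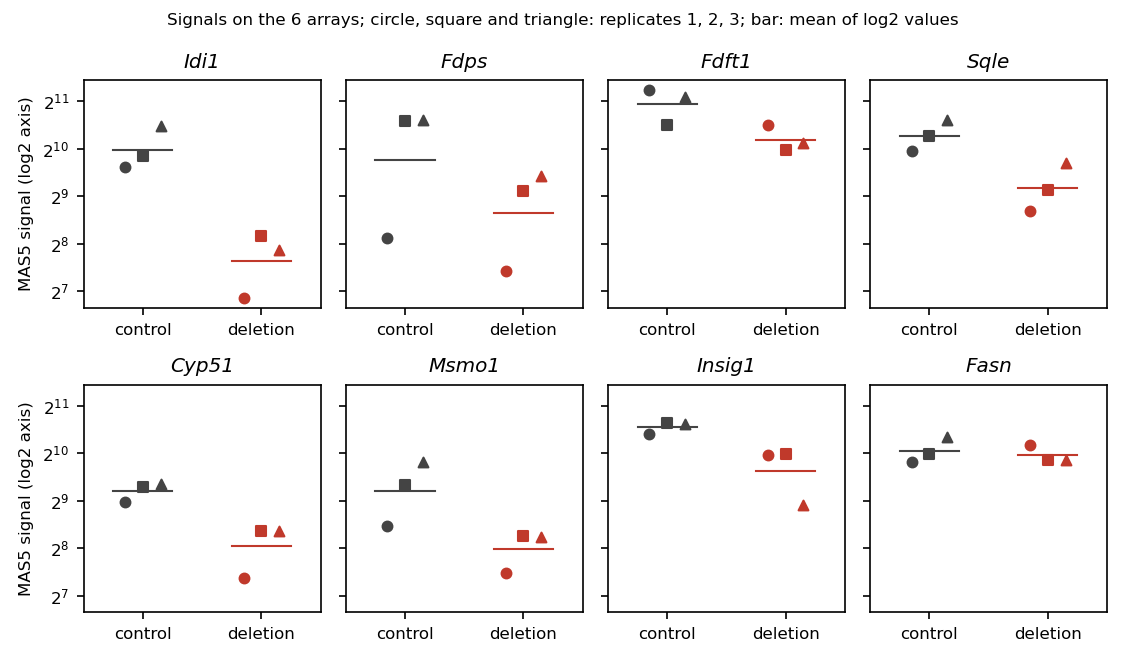
MAS5 signal (y axis, log2 scale) on each array for 8 members, controls in grey and deletion arrays in red; circle, square and triangle are replicates 1, 2 and 3 and bars are means of log2 values. The groups do not overlap for Idi1, Fdft1, Sqle, Cyp51, Msmo1 and Insig1, while Fdps and Fasn overlap; levels are not comparable between panels, as each probe set has its own response.

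The other enzymes of the arm showed smaller differences. Lanosterol synthase, Lss, which acts between Sqle and Cyp51, read 213, 303 and 377 in control and 147, 191 and 263 in deletion, a difference of -0.57 ± 0.30 with overlap. Dhcr7, a reductase of the last steps, was the other enzyme of the arm without overlap, at 375, 439 and 344 in control and 291, 290 and 252 in deletion. It differed by -0.47 ± 0.20 and was Present on 3 control and 2 deletion arrays. Nsdhl, a dehydrogenase that works with Msmo1, differed by -0.42 ± 0.22, the isomerase Ebp by -0.37 ± 0.21, the desaturase Sc5d by -0.49 ± 0.29 and the keto-reductase Hsd17b7 by -0.18 ± 0.23, all with overlap. The Hsd17b7 probe set used was, like that of Fdft1, of the type that can cross-hybridise. One further Hsd17b7 probe set was higher in deletion, by 0.47. The reductase Tm7sf2 was Present on 1 control array and on no deletion array, with signals of 184, 210 and 185 in control and 129, 210 and 239 in deletion, and was not tested.

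**Figure D3:**
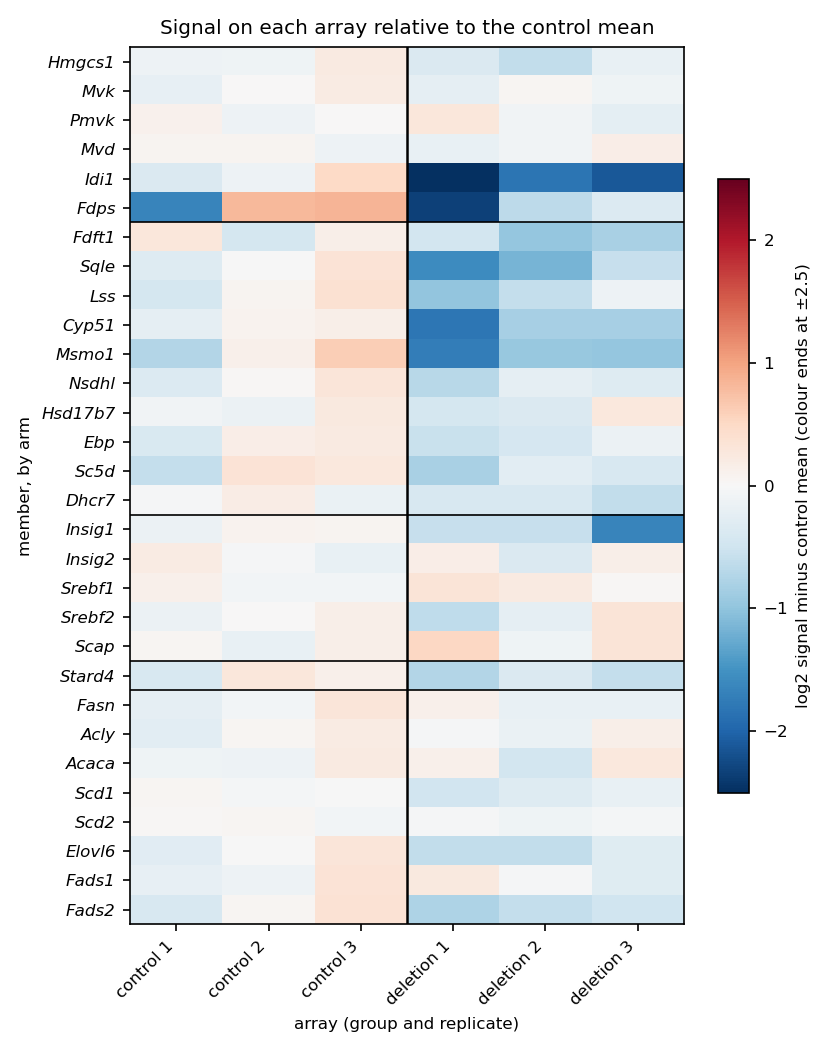
Log2 signal minus the control mean (colour, ending at ±2.5) of each tested member (rows, separated into the mevalonate, squalene and post-squalene, regulator, transport and fatty acid arms) on each array (columns). Averaged over the deletion columns, blue is deepest for Idi1 (-2.35). Msmo1, Cyp51, Sqle and Fdps (-1.21 to -1.11) and Insig1 (-0.93) follow, and Fdps is also blue on control replicate 1.

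Among the regulators a single gene stood apart on the probe sets used. Insig1, itself a known target of SREBP factors, read 1351, 1596 and 1576 in control and 1006, 1015 and 478 in deletion. No deletion array reached the control arrays, and deletion replicate 3 was lowest. The difference was -0.93 ± 0.29, or 1.91-fold, and -0.57 without deletion replicate 3. It was called lower with the block and with array weights, and not otherwise. Its relative Insig2 differed by -0.02 ± 0.20.

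On the probe sets used, the factors and their escort were close to equal in the 2 groups. Srebf1, whose protein favours fatty acid genes, read 1437, 1239 and 1255 in control and 1633, 1533 and 1335 in deletion, a difference of 0.19 ± 0.17. Scap differed by 0.24 ± 0.20, and these 2 were the members with higher means in deletion. Srebf2, whose protein favours sterol genes, differed by -0.18 ± 0.27 with overlap. Its other kept probe set read 321, 295 and 312 in control and 158, 208 and 236 in deletion, without overlap, a difference of -0.64. The median of the regulators, -0.02, was 0.15 without deletion replicate 2. SREBP activity is set by cleavage of the protein, which arrays do not measure.

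Stard4, which carries sterol between membranes, read 337, 545 and 487 in control and 269, 348 and 297 in deletion. Deletion replicate 2 lay above control replicate 1, so the groups overlapped, with a difference of -0.56 ± 0.24 or 1.48-fold. On 2 further probe sets it differed by -0.76, without overlap, and by -1.28, with overlap.

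Enzymes of the fatty acid arm all had lower means in deletion, but by -0.02 to -0.62, and after quantile normalization Acly and Scd2 were higher (0.05 and 0.06). None passed the limma threshold with or without the block. At an unadjusted p under 0.05, 2 were lower, where 5.85% of all genes were. Fatty acid synthase, Fasn, which builds palmitate, read 901, 1011 and 1299 in control and 1160, 928 and 928 in deletion. Those signals overlapped and the difference was -0.08 ± 0.20. Acly, which supplies acetyl-CoA from citrate, and Acaca, which carboxylates it, each differed by -0.02, with errors of 0.18 and 0.23. Fads1, a desaturase of polyunsaturated fatty acids, differed by -0.03 ± 0.22 and Scd2, a desaturase of saturated ones, by -0.06 ± 0.14.

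In 3 of the 8 fatty acid enzymes, Fads2, Elovl6 and Scd1, every deletion array lay below every control array, as in 8.64% of all genes. The desaturases Fads1 and Scd2 overlapped between groups. Fads2, the desaturase that opens polyunsaturated fatty acid synthesis, read 347, 475 and 585 in control and 268, 305 and 326 in deletion, a difference of -0.62 ± 0.24. Elovl6, which lengthens palmitate, read 891, 1080 and 1336 in control and 714, 712 and 882 in deletion, a difference of -0.51 ± 0.20. In both the groups did not overlap, though by a narrow margin for Elovl6. Scd1, which makes oleate, read 4839, 4529 and 4639 in control and 3369, 3742 and 4111 in deletion, also apart, a difference of -0.32 ± 0.15. Its other kept probe set read 291, 333 and 401 in control and 106, 227 and 102 in deletion, without overlap, and differed by -1.33. Further probe sets of Fads2 and Elovl6 overlapped between groups.

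By replicate number, the median of the fatty acid arm changed sign and that of the sterol enzymes did not. The fatty acid median within replicate numbers 1, 2 and 3 was 0.09, -0.25 and -0.33, with 4, 7 and 6 of 8 enzymes lower in deletion. For the 16 sterol enzymes the medians were -0.36, -0.58 and -0.58, with 15, 14 and 14 lower. Without both replicate 1 arrays the fatty acid median was -0.25, the mevalonate median -0.29 and the squalene and post-squalene median -0.61.

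Most members read by several probe sets gave the same sign. Of 28 further kept probe sets, over 18 members, 23 had the sign of the one used. For the sterol enzymes 12 of 13 were lower in deletion, 5 of them without overlap. These probe sets were read on the same RNA, so they repeat the measurement and not the experiment.

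**Figure D4:**
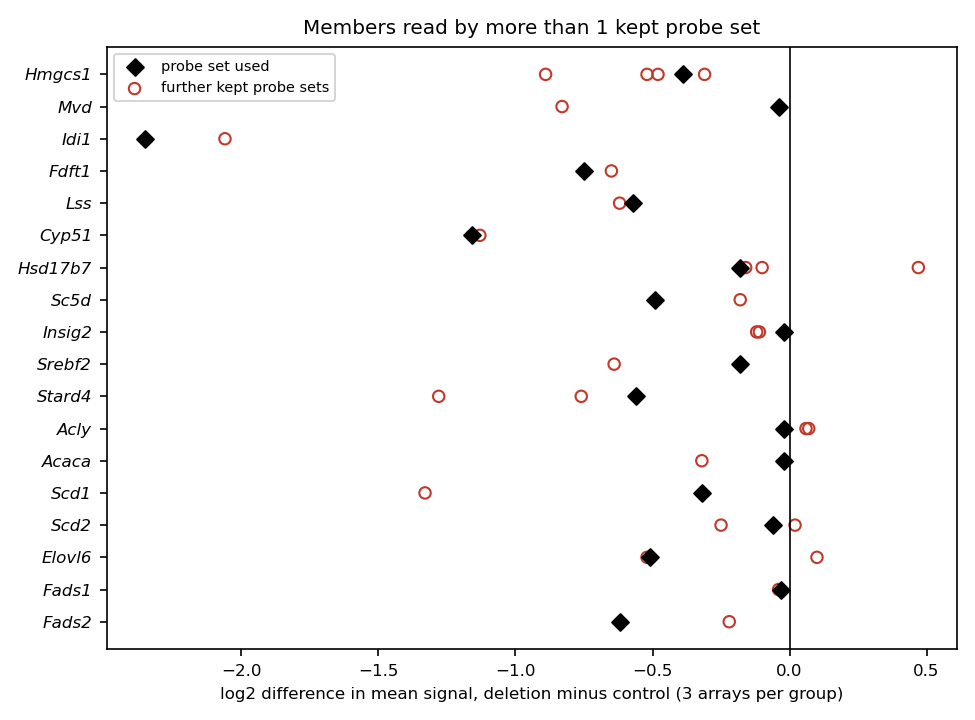
Log2 difference in mean signal between deletion and control (x axis, 3 arrays per group) for the 18 members with more than 1 kept probe set (y axis); black diamonds are the probe sets used and open red circles the further ones. For Mvd, Scd1 and Stard4 a further probe set lies over 0.7 below the one used, and for Hsd17b7, Elovl6, Acly and Scd2 at least 1 lies above 0.

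The arrays also differed inside the groups. Measured from the control mean, the median log2 signal of the sterol enzymes was -0.28, 0.05 and 0.24 on control replicates 1 to 3 and -0.62, -0.51 and -0.33 on the deletion arrays. All deletion arrays thus lay below all control arrays, while control replicate 1 lay close to deletion replicate 3. The fatty acid medians were -0.22, -0.03 and 0.27 in control and -0.03, -0.25 and -0.19 in deletion, which overlapped. Measured from each group's own mean, the sterol medians were -0.28, 0.05 and 0.24 in control and -0.27, 0.02 and 0.22 in deletion, so replicate 1 was low and replicate 3 high in each. The mean correlation between pairs of sterol enzymes over these 6 deviations was 0.26. It was 0.04 in the mevalonate arm, 0.33 in the squalene and post-squalene arm, 0.22 in the fatty acid arm and 0.00 over all genes. These are descriptions over arrays that share one RNA per sample.

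Other gene lists moved across the same arrays. Genes of dividing cells were lower in deletion: 6 of 7 fell (Mki67, Top2a, Bub1b, Cdc20, Mcm5 and Rrm2), and the median difference was -1.57. By limma 0.759% of all genes were called lower. Cdk1 was called lower with the block, as were 4.19% of all genes. Mki67, a marker of cycling cells, read 2165, 3230 and 4448 in control and 804, 1598 and 886 in deletion (log2 difference -1.59 ± 0.32, limma adjusted p = 0.0355). Cdc20 and Mcm5, of mitosis and DNA replication, fell too, with differences of -1.67 ± 0.26 and -1.51 ± 0.25 (limma adjusted p = 0.0126 and 0.0172). The summed signal of the 7 was 11524 to 18854 in control and 4151 to 7669 in deletion. The 13 markers of dental epithelium had a median of -0.08 and none passed the limma threshold. At an unadjusted p under 0.05, 3 were lower and 1 higher, where 5.85% and 9.3% of all genes were. With the block Cdh1, Epcam and Mmp20 were called lower and Krt15 and Klk4 higher, with differences of -1.06, -1.08, -1.08, 1.44 and 0.98. Over all genes 4.19% were called lower with the block and 6.44% higher. Per array the median of the 13 markers was -0.49, 0.12 and 0.26 in control and -1.05, -0.19 and 1.16 in deletion. It was low on replicate 1 and high on replicate 3 of each group, the order also seen for sterol enzymes. Their summed signal was 108014 to 150355 in control and 51408 to 198656 in deletion. The enamel genes Amelx, Ambn and Mmp20 of that list, its 3 brightest, differed by -1.36 ± 0.62, -0.20 ± 0.42 and -1.08 ± 0.25. The part of either list in the sterol values was not tested.

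**Figure D5:**
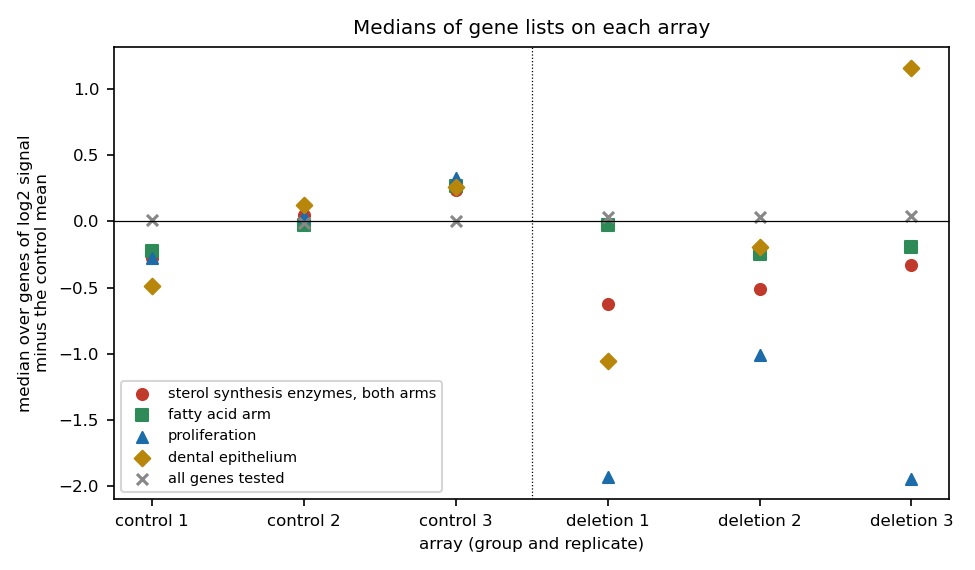
Median over genes of log2 signal minus the control mean (y axis) on each array (x axis) for the sterol enzymes, the fatty acid arm, the proliferation and dental epithelium markers and all genes tested. Sterol enzymes run from -0.62 to -0.33 on the deletion arrays, proliferation markers from -1.94 to -1.01 and epithelial markers from -1.05 to 1.16, while all genes stay within 0.04 of 0.

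Other cell types that hold much lipid were followed as well. Of 6 adipocyte markers named on the array 1 was detected well enough to be tested, the fatty acid carrier Fabp4, which rose from 493, 477 and 794 to 1193, 2189 and 2349 (1.68 ± 0.30, limma adjusted p = 0.0221). Of 6 Schwann cell markers 3 were tested, with a median of 0.01. Pmp22, Mbp and S100b differed by 0.26 ± 0.22, -0.28 ± 0.59 and 0.01 ± 0.51, and their summed signal was 2692 to 4335 in control and 3651 to 4589 in deletion. The 8 macrophage markers had a median of 0.09, with Csf1r, Lyz2 and C1qa at -0.03 ± 0.26, -0.02 ± 0.21 and 0.48 ± 0.21, and a summed signal of 12493 to 15206 in control and 12527 to 19503 in deletion.

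Stromal and vascular lists complete that view. Odontoblast markers had a median of -0.07 over 6 genes, with Dspp, Col1a1 and Phex at -0.04, 0.04 and -0.13, and summed to 117182 to 151151 in control and 120185 to 138684 in deletion. With the block Ibsp was called higher and Nes lower, with differences of 1.87 ± 0.44 and -0.55 ± 0.17 and no overlap in either. Mesenchyme markers had a median of 0.37 over 7, with Vim, Col3a1 and Pdgfra at -0.33, 0.88 and 0.10, and 1 rose (Prrx1, 1.15 ± 0.18, limma adjusted p = 0.0114). They summed to 53902 to 76872 in control and 63377 to 77017 in deletion, and with the block Col3a1 was called higher and Lhx8 lower as well. Pericyte and smooth muscle markers had a median of 0.47 over 5, with Rgs5, Acta2 and Pdgfrb at 0.45, -0.86 and 1.0, and summed to 9973 to 12840 and 10843 to 17220. With the block Pdgfrb and Cspg4 were called higher and Acta2 lower. These block calls are named after their values were seen. Over all genes 6.44% were called higher and 4.19% lower with the block, and 1.89% higher without it. Endothelial markers had a median of -0.02 over 5, with Emcn, Tek and Cdh5 at -0.02, -0.02 and 0.40, and summed to 1038 to 2536 and 1544 to 2057. Of 3 red blood cell markers none passed the detection filter.

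Genes of the same pathways that are no members had, in the median, slightly higher means in deletion. Of 61 tested, 21 had lower and 40 higher means, with a median difference of 0.11. By limma 2 rose and none fell, where 1.89% of all genes were called higher and 0.759% lower. At an unadjusted p under 0.05, 7 were higher and 2 lower, where 9.3% and 5.85% of all genes were. With the replicate block 6 were called higher (Acsl6, Elovl4, Fads3, Lpin1, Lrp8 and Mylip) and 1 lower (Tmem97). Over all genes 6.44% were called higher with the block and 4.19% lower. Both genes that rose by limma modify fatty acids. Elovl4, which builds very long chains, read 143, 188 and 212 in control and 490, 622 and 489 in deletion, without overlap. It rose by 1.57 ± 0.23 (2.97-fold, limma adjusted p = 0.0101, and 0.0507 without control replicate 2). Fads3, a member of the desaturase family of Fads1 and Fads2, read 124, 137 and 120 in control and 292, 223 and 346 in deletion, also apart. It rose by 1.16 ± 0.25 (2.23-fold, limma adjusted p = 0.0481, and 0.0631 to 0.16 when any one array was left out).

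Uptake and trafficking genes, which bring sterol into the cell or move it within, had a median of 0.09 over 13 genes. Means were lower for 3 and higher for 10, and none passed. At an unadjusted p under 0.05, 0 were lower and 1 higher, where 5.85% and 9.3% of all genes were. In 4 of the 13 every deletion array lay above every control array, against 12.2% of all genes. The lipoprotein receptors Vldlr and Lrp1 differed by -0.22 ± 0.16 and 0.05 ± 0.38, and Npc2, which hands sterol out of the lysosome, by 0.09 ± 0.21. Lrp8, another receptor of that family, read 64.2, 76.9 and 105 in control and 139, 188 and 192 in deletion. It was Present on 1 control and 2 deletion arrays and differed by 1.09 ± 0.31 (limma adjusted p = 0.111, and 0.0375 with the block). Lrp8 was named for its call with the block, after its value was seen.

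The remaining lists had medians of -0.05 to 0.17, where that of all genes was 0.02. Other isoprenoid and sterol synthesis genes had a median of -0.05 over 6, 3 lower and 3 higher, with Cyb5r3, Lbr and Erg28 at -0.37 ± 0.16, -0.32 ± 0.18 and -0.25 ± 0.28. Other regulators had a median of 0.06 over 8, with Mylip, a ubiquitin ligase of lipoprotein receptors, at 0.55 ± 0.24 and Mbtps1, the protease that first cuts SREBP, at 0.03 ± 0.15. Rnf139 differed by -0.10 ± 0.15. Tmem97, a sterol-binding membrane protein named after its value was seen, read 242, 454 and 495 in control and 124, 262 and 139 in deletion. It differed by -1.20 ± 0.37 with overlap (limma adjusted p = 0.137, and 0.014 with the block). Efflux genes had a median of 0.08 over 6, with the exporters Abca1 and Abcg1 at 0.37 ± 0.22 and 0.26 ± 0.17 and Apoe at -0.01 ± 0.23. Other fatty acid and glycerolipid genes had a median of 0.17 over 28, 10 lower and 18 higher, with Hacd1, Elovl5 and Hacd3 at -0.36 ± 0.20, 0.23 ± 0.21 and 0.38 ± 0.21. That list holds Elovl4 and Fads3, the 2 called higher. With the block 4 of its genes were called higher and 0 lower, where 6.44% and 4.19% of all genes were.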

How the data were processed

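Levels in mouse dental pulp were read on 6 arrays. Per the submitters' processing notes the authors used MAS5, and the values the authors deposited are linear intensities, 1 per probe set. Their mean, without the top and bottom 2%, was 500 on each array. The other deposited values are the authors' detection calls (Present, Marginal or Absent), whose columns name only the group, so Present calls were summed within groups; 12 more columns of sample values were left unused. The MAS5 version and scan dates are not given in the sources used here. The number of arrays limits the precision. Amplification from small amounts of RNA can skew levels toward the 3' end of transcripts.

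Probe sets were named from the supplied platform annotation, which can be old: 34958 had 1 symbol, 932 several and 9211 none; 34741 matched a RefSeq gene, and 0 symbols were altered. Probe sets with 1 symbol and at least 3 Present calls were kept (21614), and where a gene had several, the brightest by mean log2 signal stood for it. Signals under 1 were set to 1. The comparison used limma 3.58.1 (R 4.3.3) with lmFit and a trended eBayes, two-sided tests, Benjamini-Hochberg adjustment over 12250 genes and a threshold of 0.05, after the code was tested on simulated data. Adjusted p come from this fit, except where the block or an array left out is named beside them. A p sets the difference between groups against the spread between these replicates, which eBayes adjusts with that of the other genes. Any pooling of animals behind a replicate is not stated. Groups came from the sample titles, dose and days from the treatment text.

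Members, lists and the rule for named genes (all members, other pathway genes that passed, the 3 of each list with the highest mean signal, and the targeted genes) were chosen with earlier results of these data known. Replicate numbers 1 to 3 occur in both groups, and the correlation of the 2 arrays' deviations from their group means was 0.485, 0.189 and 0.286 for numbers 1, 2 and 3. All exceed 0.1, so a fit with the number as a block was an alternative; control 3 against deletion 2 reached 0.213, so for numbers 2 and 3 the pairing is uncertain. Alternatives covered normalization, low signals, the detection filter, the choice of probe set, the variance trend, array weights, the replicate block and arrays left out. Motifs were searched on both strands of the supplied RefSeq promoter windows.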

Additional observations from a re-analysis of the deposited data

How the results depend on the processing

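No called gene changed direction. Of the members not called, 11 with differences of 0.18 or less in size changed sign in some setting: 4 sterol enzymes (Hsd17b7, Mvd, Mvk and Pmvk), 5 fatty acid enzymes (Acaca, Acly, Fads1, Fasn and Scd2) and 2 regulators (Insig2 and Srebf2). The median of the regulators changed sign too. The sterol enzymes with lower means were 14 of 14 to 17 of 17 in every setting except 15 of 16 with probe sets averaged, without both replicate 1 arrays and without any single array other than control replicate 2. Members called lower, 1 in the analysis reported, were 2 with probe sets averaged (Cyp51 and Idi1), 6 with array weights (Cyp51, Idi1, Insig1, Msmo1, Sqle and Stard4), 7 with the replicate block and 4 without both replicate 1 arrays, and 0 to 2 with a single array left out. Other pathway genes called higher, 2, were 1 after quantile normalization, 1 with detection on all 6 arrays required, 1 with no detection filter, 1 without both replicate 1 arrays, 4 with array weights, 6 with the replicate block and 0 to 1 with a single array left out; those called lower, 0, were 1 with array weights and 1 with the block. The mevalonate median, -0.24, was -0.39 with detection on all 6 arrays required and -0.47 with probe sets averaged, and that of the regulators was -0.11 to 0.15 with an array left out. The cause was not tested for any of these. Calls over all genes, 93 lower and 232 higher, were 513 and 789 with the block, 415 and 691 with array weights, 167 and 333 without both replicate 1 arrays, 67 and 137 with detection on all 6 arrays, 51 and 189 without the trend, and with a single array left out 12 (without control replicate 2) to 90 lower and 82 to 219 higher. Quantile normalization moved the median of all genes from 0.02 to -0.02. Mvk, Dhcr7 and Tm7sf2 were not Present on all arrays, which limits their values.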
